A study of Mus musculus with 6 samples.

Results

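The Hox genes were examined as a positional code in brown adipocytes cultured from WT and Ucp1-KO mice. Members were the RefSeq transcripts of the abundance table whose symbol is Hox, a cluster letter from a to d and a paralog number, with the most abundant transcript standing for a gene that had more than 1. This gave 39 Hox genes (42 transcripts) of 22466 genes with a RefSeq transcript, 11 in the HoxA, 10 in the HoxB, 9 in the HoxC and 9 in the HoxD cluster. RNA was sequenced from primary brown adipocytes, which are fat cells differentiated in the dish from precursors of the interscapular brown fat pad of male 129SvEvS1 mice aged 5 to 6 weeks. There were 3 cultures of wildtype mice (WT, replicates 10, 11 and 12) and 3 of UCP1(-/-) mice (Ucp1-KO, replicates 13, 14 and 15). In both genotypes the precursors received induction medium with dexamethasone, isobutylmethylxanthine, indomethacin, insulin, T3 and rosiglitazone for 2 days, then differentiation medium with insulin, T3 and rosiglitazone for 7 days, and the labels name no further treatment. Such cultures hold precursors and other cells beside the adipocytes, and in RNA of whole cultures fewer cells of a type and less RNA per cell cannot be told apart.

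Hox genes encode homeodomain transcription factors that give cells their position along the body axis. In each cluster the genes lie in the order of their paralog numbers, and genes at the 3′ end (low numbers) are used from the hindbrain backwards, whereas genes at the 5′ end (high numbers) are used in the trunk, the tail and the distal limb. Cells taken from an adult tissue usually keep the Hox pattern of their origin, held by Polycomb and trithorax chromatin proteins, and fat depots from different places of the body differ in it. Hox proteins bind DNA together with cofactors of the Pbx, Meis and Prep (Pknox) families.

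The depth behind the values lay between 14989604 and 17727653 reads per culture, which gave whole read numbers for all 16865 transcripts tested. Of 7 adipocyte markers, Fabp4 was the most abundant, between 26399 and 29312 RPKM (reads scaled to transcript length in kilobases and to the mapped reads of the culture) in the 6 cultures. The least abundant was Prdm16, between 2.44 and 3.28 RPKM. The targeted gene, Ucp1, was at 1775, 981 and 1157 RPKM in WT replicates 10, 11 and 12 and at 307, 409 and 398 RPKM in Ucp1-KO replicates 13, 14 and 15, so that transcript was still measured in the Ucp1-KO cells. The paper attributes this RNA to a remnant that is not functional, and its Western blot detected no UCP1 protein in Ucp1-KO cells. WT replicate 11 stood apart by transcripts of other cell types. The sum of 10 stromal and preadipocyte markers was 744, 1707 and 1033 RPKM in the WT and 1004, 924 and 631 RPKM in the Ucp1-KO cultures, and 0 of these markers were at 0 in all cultures. The sum of 4 endothelial markers was 2.30, 28.0 and 13.2 RPKM in the WT and 5.69, 12.8 and 5.22 RPKM in the Ucp1-KO cultures.

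The Hox code of these cells covered the anterior and middle parts of the clusters and ended at paralog 9. All 20 genes of paralogs 2 to 8 averaged 0.5 RPKM or more across the 6 cultures, which was the minimum for a test. Of the 4 genes of paralog 9, Hoxb9 and Hoxd9 reached it. Of the 12 genes of paralogs 10 to 13, 0 reached it. The 23 genes that passed are not a random draw of the members, since passing required abundance in at least 1 genotype. Hoxb9 with 0.503 RPKM and Hoxd3 with 0.501 RPKM lay just inside the minimum, and Hoxc9 with 0.353 RPKM lay just outside. The sum of all Hox genes was 90.5 ± 10.7 RPKM (SD, n = 6), of which paralogs 4 to 8 held 75.02%, paralogs 1 to 3 held 22.6% and paralogs 9 to 13 held 2.42%.

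**Figure D1:**
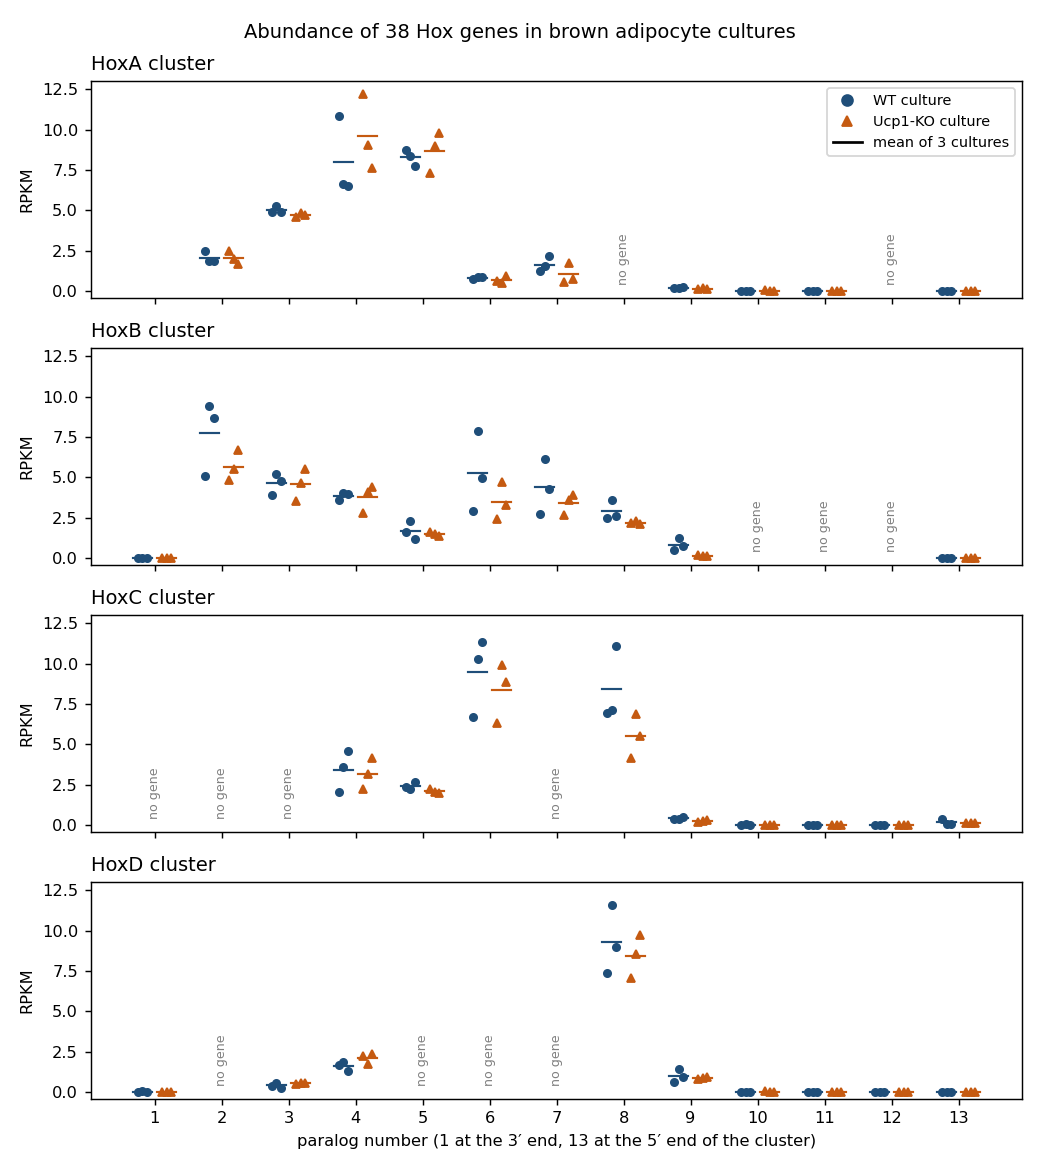
Abundance in RPKM (linear axis) of 38 of the 39 Hox genes by cluster (panels) and paralog number (horizontal axis). Points are single cultures, circles WT and triangles Ucp1-KO, and short lines are means of 3 cultures. Abundance peaked at paralogs 2 to 8, and paralogs 10 to 13 lay near 0 in both genotypes.

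The HoxA cluster lies on the reverse strand of chromosome 6 (52155367 to 52260880, GRCm38). Hoxa4 was at 10.8, 6.63 and 6.50 RPKM in the WT and 12.2, 9.04 and 7.64 RPKM in the Ucp1-KO cultures. Hoxa5, a gene known for its part in lung and shoulder patterning, was at 8.71, 8.36 and 7.75 RPKM in the WT and 7.29, 8.99 and 9.77 RPKM in the Ucp1-KO cultures. Next to Hoxa5 the level dropped, and Hoxa6 (transcript NM_010454) averaged 0.833 ± 0.0699 RPKM in the WT and 0.691 ± 0.236 RPKM in the Ucp1-KO cultures (SD, n = 3 each). Hoxa3, which patterns the pharyngeal arches, varied little, averaging 5.03 ± 0.236 RPKM in the WT and 4.73 ± 0.129 RPKM in the Ucp1-KO cultures (SD, n = 3 each). Hoxa2, a gene of the hindbrain, had a mean of 2.05 RPKM over the 6 cultures. Hoxa7 was at 1.26, 1.53 and 2.17 RPKM in the WT and 0.603, 1.75 and 0.786 RPKM in the Ucp1-KO cultures, with overlapping genotypes.

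The HoxB cluster lies on the forward strand of chromosome 11 (96194316 to 96368254). Hoxb2, a gene of hindbrain segments, was at 5.06, 9.44 and 8.68 RPKM in the WT and 4.82, 5.51 and 6.67 RPKM in the Ucp1-KO cultures, and its genotypes overlapped. Hoxb3 and Hoxb4 had means of 4.60 and 3.83 RPKM, and Hoxb5 had 1.61 RPKM. Hoxb6 was at 2.92, 7.84 and 4.99 RPKM in the WT and 2.44, 4.74 and 3.28 RPKM in the Ucp1-KO cultures. Hoxb7 was at 2.72, 6.14 and 4.31 RPKM in the WT and 2.68, 3.61 and 3.89 RPKM in the Ucp1-KO cultures. Both were highest in WT replicate 11 and lowest in Ucp1-KO replicate 13. Hoxb1, a marker of the fourth hindbrain segment, had 1 read in a single Ucp1-KO culture, and Hoxb13, at the far 5′ end, was listed at 0.

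The HoxC cluster lies on the forward strand of chromosome 15 (102921131 to 103036856) and has no gene of paralogs 1 to 3. Hoxc6 had the highest mean of all Hox genes, with 8.91 ± 2.02 RPKM over the 6 cultures (SD, n = 6). It was at 6.70, 10.3 and 11.3 RPKM in the WT and 6.34, 9.91 and 8.88 RPKM in the Ucp1-KO cultures. Hoxc8, which acts in the thoracic trunk, was at 6.97, 7.16 and 11.1 RPKM in the WT and 4.18, 6.86 and 5.55 RPKM in the Ucp1-KO cultures. Here all Ucp1-KO cultures lay below all WT cultures, although the gap between WT replicate 10 and Ucp1-KO replicate 14 was small. Hoxc4 and Hoxc5 had means of 3.30 and 2.27 RPKM.

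The HoxD cluster lies on the forward strand of chromosome 2 (74668225 to 74765142) and had the lowest sum in all 6 cultures. Hoxd8 made up most of it, with 7.40, 11.6 and 8.99 RPKM in the WT and 7.04, 8.56 and 9.74 RPKM in the Ucp1-KO cultures. Hoxd9, its neighbour on the 5′ side, averaged 0.993 ± 0.409 RPKM in the WT and 0.858 ± 0.0626 RPKM in the Ucp1-KO cultures (SD, n = 3 each), and Hoxd10 had at most 2 reads in a culture. Hoxd4 was at 1.69, 1.87 and 1.34 RPKM in the WT and 2.27, 1.75 and 2.35 RPKM in the Ucp1-KO cultures. Hoxd3 had a mean of 0.501 RPKM, but 88.0% of its exon bases are shared with Gm28230 or transcripts of Hoxd4 on the same strand. For the Hoxd4 transcript used here the share was 45.1%, with Gm28230 alone. Reads of Hoxd3 and Hoxd4 may thus not be told apart from those of the genes that share their bases.

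By cluster, the summed abundance was 28.2 ± 1.89 RPKM for HoxA, 28.0 ± 6.92 RPKM for HoxB, 22.0 ± 5.05 RPKM for HoxC and 12.2 ± 2.02 RPKM for HoxD (SD, n = 6 each). HoxA lay above HoxB in 4 of 6 cultures, and their means differed by less than the spread between cultures. HoxA lay above HoxC in 5 of 6 cultures, with means that differed by more than the larger SD of the pair. HoxB lay above HoxC in 6 of 6 cultures, although their means differed by less than 1 of these standard deviations. Within the order of single genes, Hoxc6, Hoxd8, Hoxa4 and Hoxa5 with means between 8.48 and 8.91 RPKM could not be ranked against each other, since each neighbouring pair differed by less than the larger SD of the pair. The same held for every neighbouring pair down to Hoxd3, the last of the 23 genes. Hoxb2, sixth in the order, was nevertheless above Hoxa3, the seventh, in 6 of 6 cultures. Even the most abundant Hox genes were transcripts of middle abundance, as Hoxc6 stood above 55.7% of the 12259 genes tested.

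The posterior genes marked where the code ended. Of the 12 genes of paralogs 10 to 13, 7 (Hoxa11, Hoxb13, Hoxc11, Hoxc12, Hoxd11, Hoxd12 and Hoxd13) were listed at 0 in all cultures, where 3 reads, the floor that a count of 0 allows, correspond to between 0.0668 RPKM for Hoxd12 and 0.194 RPKM for Hoxc12. Hoxa10, Hoxc10, Hoxd10 and Hoxa13 had at most 2 reads in any culture. The exception was Hoxc13, a gene of hair, nail and tail, which had 15, 3 and 4 reads in the WT cultures and 5, 6 and 6 in those of Ucp1-KO mice, or a mean of 0.160 RPKM over the 6 cultures. The reads carry no molecular identifiers and may repeat a molecule, so these floors cover counting error only.

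The start sites of 4 genes are shown to place abundant members beside barely detected ones of the same cluster. Each is the 250 bases before a transcript start given by RefSeq on GRCm38.p6, read 5′ to 3′ on the strand of the gene, with CpG dinucleotides in capitals. The windows are chr2:74704365-74704614 on the forward strand for Hoxd8 and chr2:74691641-74691890 on the forward strand for Hoxd10, then chr6:52204588-52204837 on the reverse strand for Hoxa5 and chr6:52260881-52261130 on the reverse strand for Hoxa13. The Hoxd10 window lies inside the whole RefSeq span of that gene, which begins at 74684273.
Hoxd8: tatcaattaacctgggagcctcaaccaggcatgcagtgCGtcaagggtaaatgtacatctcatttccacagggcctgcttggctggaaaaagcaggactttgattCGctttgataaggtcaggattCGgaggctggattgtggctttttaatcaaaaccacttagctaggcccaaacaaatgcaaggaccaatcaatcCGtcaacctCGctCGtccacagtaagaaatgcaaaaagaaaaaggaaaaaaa
Hoxd10: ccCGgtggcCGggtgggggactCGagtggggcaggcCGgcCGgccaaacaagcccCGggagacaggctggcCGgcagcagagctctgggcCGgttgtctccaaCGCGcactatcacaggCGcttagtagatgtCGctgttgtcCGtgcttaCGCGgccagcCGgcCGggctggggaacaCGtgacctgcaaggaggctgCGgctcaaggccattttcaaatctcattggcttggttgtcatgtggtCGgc
Hoxa5: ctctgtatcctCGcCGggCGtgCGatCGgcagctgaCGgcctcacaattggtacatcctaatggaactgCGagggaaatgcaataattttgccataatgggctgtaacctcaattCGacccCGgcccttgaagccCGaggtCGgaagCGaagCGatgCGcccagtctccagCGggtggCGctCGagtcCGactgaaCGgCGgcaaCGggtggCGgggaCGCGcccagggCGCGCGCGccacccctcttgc
Hoxa13: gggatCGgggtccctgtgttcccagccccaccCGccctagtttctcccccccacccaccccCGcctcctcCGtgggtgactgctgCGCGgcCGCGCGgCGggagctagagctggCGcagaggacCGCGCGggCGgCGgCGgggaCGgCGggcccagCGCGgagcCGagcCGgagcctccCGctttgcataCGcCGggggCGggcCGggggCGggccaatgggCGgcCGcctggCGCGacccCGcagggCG

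In these windows abundant Hoxd8 had 6 CpG and Hoxd10, with reads in a single culture, had 20, whereas abundant Hoxa5 had 28 and Hoxa13, also with reads in a single culture, had 35. The RefSeq promoter table used here held 24 windows of 22 Hox genes (9 HoxA, 3 HoxB, 1 HoxC and 9 HoxD), 10 of which contain an annotated exon. Their median was 12.5 CpG, and over all 32851 promoter windows of the same length it was 6 CpG. The box CCAAT, read on both strands, was present in 14 of the 24 Hox windows and in 33.8% of all windows. The letters TATAAA were present in 4 of the 24 and in 12.4% of all, and TGATTNAT, the composite Pbx-Hox site, was present in 2 of the 24 and in 2.82% of all. The letters AGGTCA were present in 6 of the 24 and in 14.02% of all, and TGACAG was present in 2 of the 24 and in 15.9% of all. These matches describe letters and not bound sites.

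Whether the loss of Ucp1 came with a different Hox code was examined with the moderated linear model of limma, with its prior variance following abundance, on log2(RPKM + 1) of all 16865 transcripts, with Benjamini-Hochberg adjustment. With an adjusted p threshold of 0.05, 0 of the 23 Hox genes were called, against 0% of all transcripts tested, and the smallest adjusted p of a Hox gene was 0.868. The targeted gene, Ucp1, was not called either (log2 fold change -1.78, limma adjusted p = 0.868). The absence of calls therefore does not show that the Hox code was the same in both genotypes. At an unadjusted p under 0.05, 2 Hox genes, Hoxb9 and Hoxc8, were lower in Ucp1-KO cells, against 3.24% of all transcripts, and 0 were higher, against 2.30%. By limma-voom on the recovered reads, 0 were called and 1, Hoxb9, was at an unadjusted p under 0.05. Hoxb9 passed the minimum only through the WT cultures, and the study lists it from these same cultures, so both counts carry that choice. Without WT replicate 10 there were 6, all lower in Ucp1-KO cells, beside 7.44% of all transcripts. The median log2 fold change of the 23 Hox genes was -0.09, beside -0.0016 for all transcripts tested. It lay between -0.16 without WT replicate 10 and -0.03 without WT replicate 11, beside medians of -0.04 and 0.02 for all transcripts. By sign alone, 18 of the 23 fold changes were below 0, beside 50.4% of all transcripts. This count was 14 of 23 without WT replicate 11, beside 44.3% of all transcripts, and 14 of 23 without Ucp1-KO replicate 13, beside 45.9%.

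**Figure D2:**
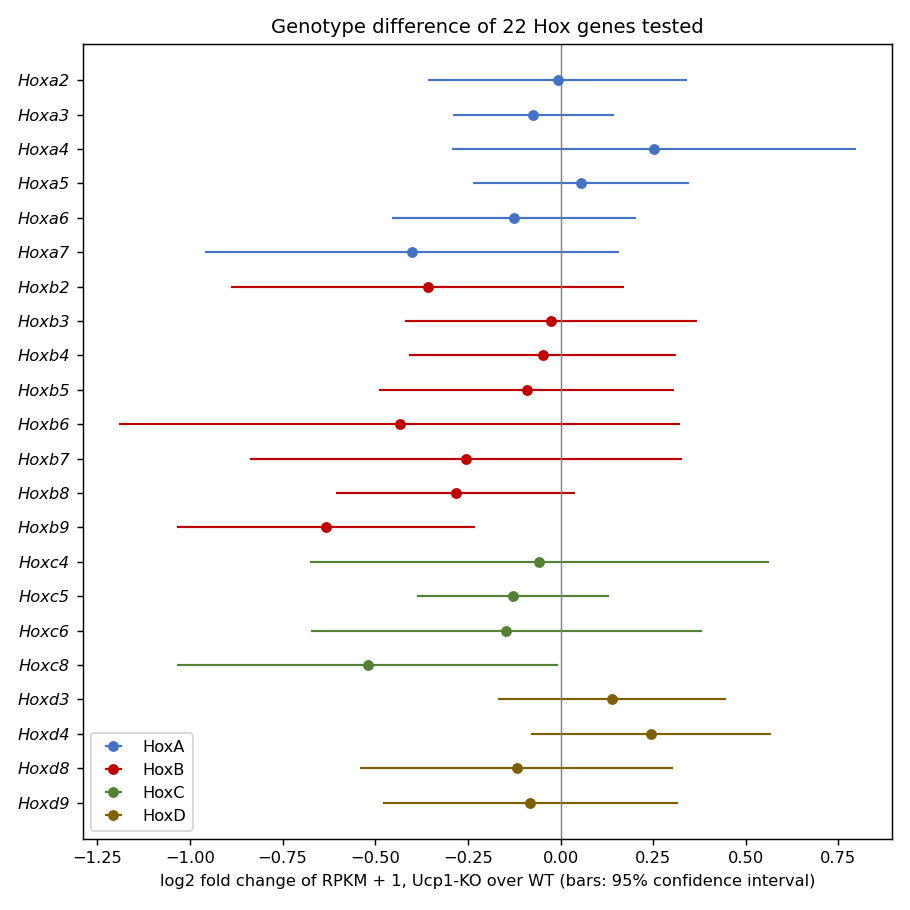
Log2 fold change of RPKM + 1, Ucp1-KO over WT, of 22 of the 23 Hox genes tested, with bars for the 95% confidence interval of the limma fit and colours for the clusters. The intervals of Hoxb9 and Hoxc8 lie below 0 before adjustment and all others include 0. All 8 HoxB and all 4 HoxC points lie below 0.

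By cluster, all 8 HoxB genes tested (median log2 fold change -0.27) and all 4 HoxC genes (-0.14) had values below 0, in contrast to 4 of 7 HoxA genes (-0.0077) and 2 of 4 HoxD genes (0.03). Without Ucp1-KO replicate 13 the counts were 6 of 8 HoxB and 2 of 4 HoxC genes, without WT replicate 11 they were 6 of 8 and 4 of 4, and without WT replicate 12 they were 8 of 8 and 3 of 4. Hoxb9 passed the minimum only through the WT cultures and Hoxd3, one of the HoxD genes above 0, only through the Ucp1-KO cultures, with means of 0.431 RPKM in the WT and 0.570 RPKM in the Ucp1-KO cultures. A difference between clusters was not tested, and the 8 HoxB values come from the same 6 cultures. The values furthest above 0 were those of Hoxa4 with 0.25 (95% confidence interval -0.29 to 0.80) and Hoxd4 with 0.24 (-0.08 to 0.57). For Hoxa5 the log2 fold change was 0.06 (-0.24 to 0.35) and for Hoxa3 it was -0.07 (-0.29 to 0.14), so that for these genes larger differences than these bounds lie outside the interval of the fit.

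Hoxb9, a gene of the thoracic trunk, had the log2 fold change furthest from 0 of the 23 genes with all 6 cultures. Without WT replicate 11 it was passed by Hoxc8 (-0.61 against -0.48), and without Ucp1-KO replicate 14 by Hoxc8, Hoxa7 and Hoxb6. Hoxb9 was at 0.499, 1.24 and 0.773 RPKM in the WT cultures, from 23, 56 and 37 reads. In the Ucp1-KO cultures it was at 0.206, 0.150 and 0.148 RPKM, from 9, 7 and 6 reads. All Ucp1-KO cultures lay below all WT cultures, and the Ucp1-KO mean of 0.168 ± 0.0329 RPKM was 20.1% of the WT mean of 0.838 ± 0.376 RPKM (SD, n = 3 each). An exact permutation test, two-sided, gave p = 0.10, below which 3 against 3 cultures cannot go. On the scale of RPKM + 1 its log2 fold change came to -0.63 (standard error 0.17, 95% confidence interval -1.04 to -0.23, limma adjusted p = 0.868), and its unadjusted p was 0.00752. Hoxb9 passed the minimum of 0.5 RPKM only through the WT cultures, so the test was run on a gene that had to differ, and its p and its place among the 23 carry that choice. Since the added 1 RPKM makes the change of rare transcripts smaller, it was -1.73 with 0.1 RPKM added and -2.15 by limma-voom on reads. In the deposited table, all 4 transcripts of Hoxb9 from the different annotations had all Ucp1-KO below all WT cultures, but they describe the same gene. The study lists Hoxb9 among genes it took from these same cultures, so its direction here is not independent evidence.

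The other Hox genes whose genotypes did not overlap were Hoxa3, Hoxb8 and Hoxc8, making 4 of the 23 tested with all Ucp1-KO below all WT cultures, beside 5.15% of all transcripts. Hoxb9 is in this count although it passed the minimum only through the WT cultures, and without it there were 3 of 22. In the opposite direction there were 0, beside 6.04%. For Hoxa3 the gap between WT replicate 10 with 4.88 RPKM and Ucp1-KO replicate 14 with 4.86 RPKM was close to 1 read, and 4 of its 8 transcripts in the table had all Ucp1-KO below all WT cultures. Hoxc8 had a log2 fold change of -0.52 (standard error 0.22, limma adjusted p = 0.868), with an unadjusted p of 0.0479. Hoxb8, the neighbour of Hoxb9 on the 3′ side, was at 2.48, 3.60 and 2.62 RPKM in the WT and 2.18, 2.28 and 2.09 RPKM in the Ucp1-KO cultures, a log2 fold change of -0.28 (standard error 0.14, limma adjusted p = 0.871). Without WT replicate 12, Hoxc8 was at -0.33, and without WT replicate 11, Hoxb8 was at -0.16. The number of Hox genes with genotypes that did not overlap, in either direction, was 10 without WT replicate 10, beside 32.8% of all transcripts. It was 7 without WT replicate 11, beside 14.4%, and 7 without Ucp1-KO replicate 13, beside 27.8%.

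The paralog 9 genes are the last of the code, and their values can be set side by side. Hoxc9 was at 0.409, 0.418 and 0.525 RPKM in the WT and 0.216, 0.236 and 0.310 RPKM in the Ucp1-KO cultures, from 40 and 21 reads in all. Hoxa9 was at 0.206, 0.211 and 0.273 RPKM in the WT and 0.164, 0.204 and 0.117 RPKM in the Ucp1-KO cultures, from 27 and 18 reads in all. Both were under the minimum for the test and had all Ucp1-KO below all WT cultures, which held for 6.05% of transcripts with a mean of 0.1 to 0.5 RPKM. For Hoxa9 the gap between the genotypes was smaller than 1 read. Hoxd9 overlapped, with 0.614, 1.43 and 0.940 RPKM in the WT and 0.796, 0.856 and 0.921 RPKM in the Ucp1-KO cultures. The sum of the 4 genes was 1.73, 3.30 and 2.51 RPKM in the WT and 1.38, 1.45 and 1.50 RPKM in the Ucp1-KO cultures, or 57.4% of WT in the mean. Of the 4, Hoxb9 was at 20.1%, Hoxc9 at 56.4%, Hoxa9 at 70.3% and Hoxd9 at 86.4% of WT. For paralogs 4 to 8 the Ucp1-KO sum was 89.7% of WT and for paralogs 1 to 3 it was 89.8%. Within paralogs 4 to 8 the sums ran from 73.5% of WT for paralog 7 to 110.5% for paralog 4. These sums carry no test.

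A non-coding transcript beside Hoxb9 was looked at after its values were seen. Gm53 (NR_037977) lies in the same cluster, from 96251660 to 96264484 on chromosome 11 and 6.85 kb from Hoxb9 on the side of Hoxb13. It was at 0.475, 0.388 and 0.366 RPKM in the WT and 0.10, 0 and 0 RPKM in the Ucp1-KO cultures. These values rest on 13 reads in the WT and 1 read in the Ucp1-KO cultures, and the transcript was under the minimum for the test.

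The Hox genes also differed between cultures of the same genotype, and most genes of a cluster shared their highest culture in HoxB and HoxC. Of the 8 HoxB genes tested, 6 (Hoxb2, Hoxb5, Hoxb6, Hoxb7, Hoxb8 and Hoxb9) were highest in WT replicate 11, and all 4 HoxC genes were highest in WT replicate 12. WT replicate 11 was the highest culture for 9 of the 23 genes, or 39.1%, beside 26.8% of all transcripts tested. Ucp1-KO replicate 13 was the lowest for 11 of the 23, or 47.8%, beside 24.5% of all transcripts. Hoxb6 and Hoxb7 in WT replicate 11 were more than 2 times their values in WT replicate 10, a larger distance than that between the genotype means. The HoxA genes had no common order. Hoxa3 was highest in WT replicate 11 and lowest in Ucp1-KO replicate 13, whereas Hoxa4 was highest in WT replicate 10 among the WT and in replicate 13 among the Ucp1-KO cultures.

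**Figure D3:**
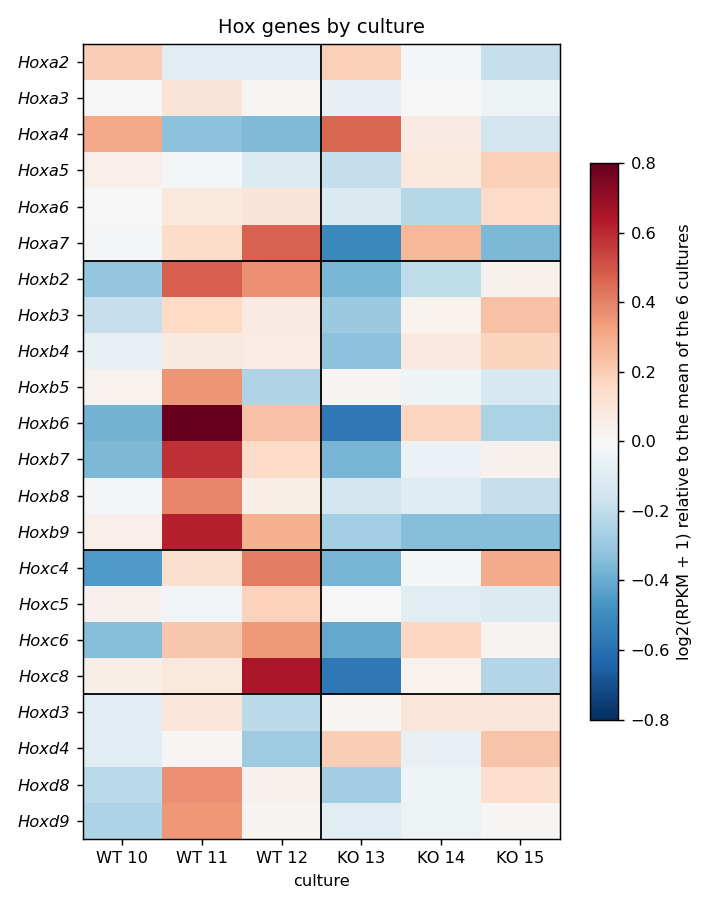
Log2(RPKM + 1) of 22 of the 23 Hox genes tested, by culture (columns, WT left and Ucp1-KO right of the line), relative to the mean of the 6 cultures of each gene. Red is above and blue below that mean. Of the 8 HoxB genes, 6 were highest in WT replicate 11 and 2 (Hoxb3 and Hoxb4) in Ucp1-KO replicate 15, and all 4 HoxC genes were highest in WT replicate 12.

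WT replicate 11 was also the culture with the largest sums of stromal and endothelial markers. By sign, 9 of the 9 stromal and preadipocyte markers tested were below 0 in Ucp1-KO cells (median log2 fold change -0.52), 3 of them with all Ucp1-KO below all WT cultures, beside 5.15% of all transcripts, and 0 were called. The tenth, the preadipocyte gene Dlk1, was under the minimum for the test, with a mean of 0.228 RPKM in the WT and 0.431 RPKM in the Ucp1-KO cultures. For the 3 endothelial markers tested the median was -0.41. Without WT replicate 11, the log2 fold change of Hoxb9 was -0.48 (limma adjusted p = 0.999), where the gene would be under the minimum. The part of these cells in the values of the Hox genes was not tested. The sum of 3 Schwann cell markers was also highest in WT replicate 11, with 3.65 RPKM beside 2.01 to 3.05 RPKM in the other cultures. The 4 macrophage markers peaked in Ucp1-KO replicate 14 with 145 RPKM and the 5 skeletal muscle markers in Ucp1-KO replicate 13 with 10.2 RPKM.

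**Figure D4:**
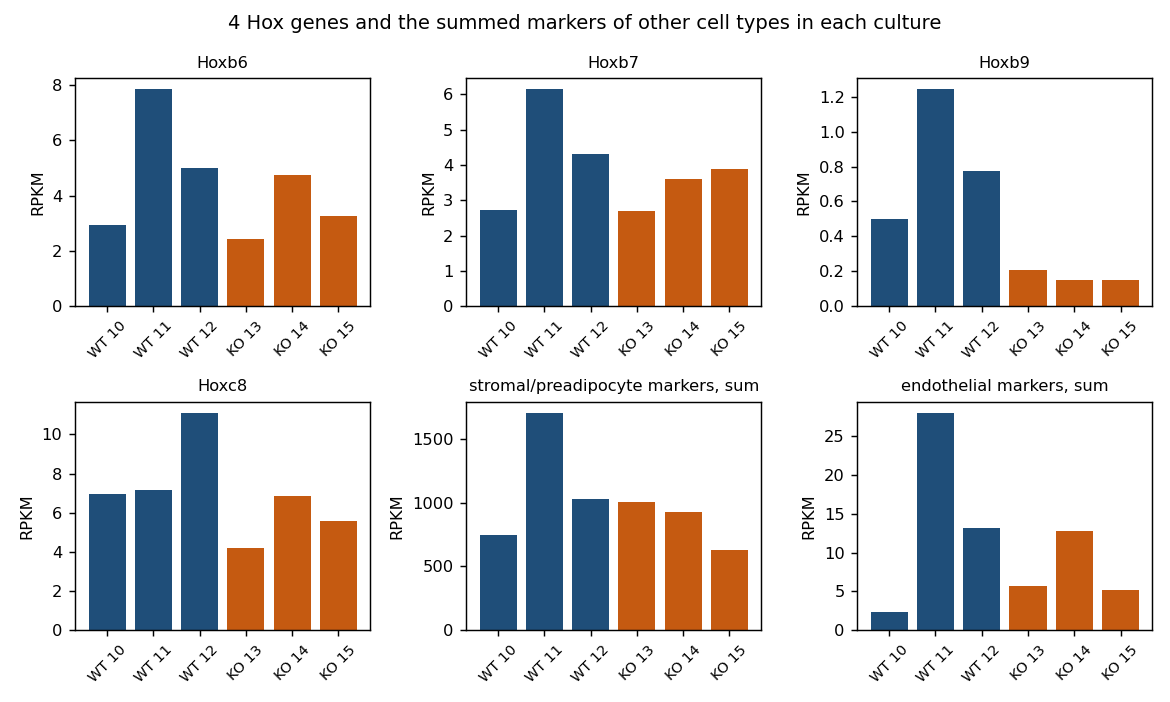
Abundance in RPKM (bars from 0) of Hoxb6, Hoxb7, Hoxb9 and Hoxc8 and the sums of 10 stromal and preadipocyte and of 4 endothelial markers in each culture, blue WT and orange Ucp1-KO. Hoxb6, Hoxb7, Hoxb9 and both marker sums were highest in WT replicate 11, and Hoxc8 was highest in WT replicate 12.

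Partners of the Hox proteins were present in both genotypes. All 9 cofactor genes were tested, 6 with a value below and 3 above 0 (median log2 fold change -0.10), and 0 were called. The most abundant was Pbx2 averaging 11.6 ± 2.82 RPKM in the WT and 10.4 ± 2.22 RPKM in the Ucp1-KO cultures (SD, n = 3 each). Pknox1 and Meis2 had means of 3.89 and 2.72 RPKM, and their genotypes overlapped. Of the 9, 2 had all Ucp1-KO below all WT cultures, beside 5.15% of all transcripts, and 0 had them above, beside 6.04%. At an unadjusted limma p under 0.05, 1 was lower in Ucp1-KO cells, beside 3.24% of all transcripts.

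Other genes that mark position in the body were also measured. Of 27 such genes, 11 were tested, 7 with a value below 0 and 4 above (median log2 fold change -0.06), and 0 were called. Twist1, a mesoderm factor, had a mean of 11.2 RPKM, Tbx15, a factor of dorsal skin and trunk, had 5.27 RPKM, Zic1, known from brown fat, had 3.25 RPKM and Tbx18 had 3.08 RPKM. The factors of the somite muscle lineage Pax3 and Pax7 and the homeobox genes next to or related to Hox clusters, Evx1, Evx2, Gsx1, Gsx2, Pdx1, Cdx2 and Cdx4, were listed at 0 in all cultures.

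Of 19 non-coding RNAs of the Hox clusters, 5 had a RefSeq transcript and 1 was tested. Mira, which lies between Hoxa6 and Hoxa7, was at 2.57, 5.03 and 4.67 RPKM in the WT and 2.72, 3.85 and 2.76 RPKM in the Ucp1-KO cultures. Hoxd3os1 and Hoxaas3 had means of 0.442 and 0.119 RPKM, and Hotair of the HoxC cluster and Hoxa11os were listed at 0. The kit used does not mark the strand, so reads of a gene and its antisense partner cannot be told apart. Antisense exons covered 58.5% of the exon bases of Hoxb2 and 50.9% of those of Hoxb3 (both Hoxb3os) and 28.8% of those of Hoxa7 (Hoxaas3).

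Chromatin regulators that maintain the Hox pattern were compared in the same way. Of 16 Polycomb genes, which keep Hox genes silent, all were tested, 8 with a value below and 8 above 0 (median log2 fold change -0.02), and 0 were called. The most abundant were Suz12 with a mean of 15.2 RPKM, Eed with 12.3 RPKM, Phc2 and Bmi1 (both 11.7 RPKM). The 10 trithorax genes, which keep Hox genes active, had a median log2 fold change of 0.10 with 0 called, led by Men1 with a mean of 12.3 RPKM. The boundary factors Rad21 and Ctcf had means of 30.6 and 8.83 RPKM and a median of -0.0024.

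Retinoic acid is a vitamin A derivative that switches on Hox genes from the 3′ end in the embryo. Of 18 genes of its synthesis, breakdown and reception, 13 were tested, 9 with a value below and 4 above 0 (median log2 fold change -0.36), and 0 were called. The most abundant were Dhrs3 with a mean of 22.8 RPKM and the receptors Rxrb with 18.1 RPKM, Rxra with 11.3 RPKM and Rxrg with 8.33 RPKM, all with overlapping genotypes. At an unadjusted p under 0.05, 4 of the 13, among them Aldh1a2, Rdh10 and Cyp26b1 (named after their values were seen), were lower in Ucp1-KO cells, beside 3.24% of all transcripts. Aldh1a2, an enzyme that makes retinoic acid, was at 3.34, 15.8 and 4.21 RPKM in the WT and 2.60, 1.36 and 0.265 RPKM in the Ucp1-KO cultures. Like Hoxb6 and Hoxb7, Aldh1a2 was highest in WT replicate 11, which had the largest sum of stromal and preadipocyte markers. Of these markers, Ly6a was highest in Ucp1-KO replicate 14 and Dlk1 in Ucp1-KO replicate 15. A link between the markers and Aldh1a2 was not tested. On the log2 scale Aldh1a2 differed by -1.71 (standard error 0.58, limma adjusted p = 0.868). Aldh1a1, another such enzyme, had a mean of 3.23 RPKM in the WT and 4.56 RPKM in the Ucp1-KO cultures, with overlap and a log2 fold change of 0.40.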

How the data were processed

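RNA of 6 cultures was sequenced as single reads of 50 bases. Per the labels, CASAVA and bcl2fastq were used upstream. The authors mapped the reads to mouse build 38, counted those with a unique assignment per known transcript with Genomatix software, and deposited the resulting RPKM values, normalized to transcript length and mapped reads. Their own comparison of read numbers was not repeated. Of 168326 rows, the 28890 RefSeq ones were used, and 0 value columns were without a sample. The 3 cultures of a genotype were independent cultures.

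Genotypes were compared by limma 3.58.1 (R 4.3.3), with an intensity trend, on log2(RPKM + 1) of the 16865 transcripts (12259 genes) that averaged 0.5 RPKM or more, without covariates, with an adjusted p threshold of 0.05. Library totals, and from them reads, were computed from values that were whole multiples of 1 read within 0.03 reads, which held for 100% of transcripts tested and about 93% of Ensembl transcripts. The steps were tested on simulated data. Python 3.11.15 with pandas 2.3.3 did the rest. Gene positions were read from RefSeq, and exon overlaps from GENCODE M21 (GRCm38).

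The named genes are all Hox genes and, from each list, up to 4 genes in the order of abundance. Members and lists were chosen with earlier results of these data known. Alternatives were a constant of 0.1 RPKM, other minima, 1 transcript per gene, all annotations, median-of-ratios scaling, limma-voom on reads, an adjusted p of 0.10, and leaving out each culture with the transcripts kept. A few genes are left out of the text and figures.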

Additional observations from a re-analysis of the deposited data

How the results depend on the processing

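No paired analysis was possible because the genotypes share no replicate number. Calls among the Hox genes were 0 under all 12 alternatives of the fit and at an adjusted p of 0.10. In the main fit the targeted gene, Ucp1, was not called either. Without a minimum abundance 22 of all transcripts were called instead of 0, and 0 of them were Hox genes. Hox genes at an unadjusted p under 0.05 numbered 2, and 1 by limma-voom and between 1 and 6 with 1 culture left out, the 6 without WT replicate 10, where 7.44% of all transcripts were at such a p and lower. Hoxb9, which passed the minimum only through the WT cultures, is in each of these counts. Non-overlapping Hox genes numbered 4 of 23, beside 11.2% of all transcripts in either direction. With 1 culture left out they numbered between 5 and 10, and the share of all transcripts also rose, to between 14.4% and 32.8%. Without the most abundant gene the cluster sum was 19.4 RPKM for HoxA, 21.3 RPKM for HoxB (then above HoxA), 13.1 RPKM for HoxC and 3.35 RPKM for HoxD. Of 276 single-gene values under alternatives, 263 kept their direction. The 13 reversals were all of genes with a log2 fold change between -0.15 and 0.06. Hoxa2 was at 0.0003 with median-of-ratios scaling. With 1 culture left out, the log2 fold change lay between -0.11 and 0.0876 for Hoxa2, -0.0257 and 0.16 for Hoxa5, -0.15 and 0.12 for Hoxb3, -0.15 and 0.10 for Hoxb4, -0.23 and 0.0623 for Hoxb5, -0.30 and 0.13 for Hoxc4, -0.35 and 0.0201 for Hoxc6, -0.26 and 0.034 for Hoxd8 and between -0.22 and 0.0699 for Hoxd9. The causes were not tested. For the genes under about 0.5 RPKM, depth limits what can be seen.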
